A study of Mus musculus with 6 samples.

Results

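Respiratory complexes III and IV and ATP synthase were examined through the probes whose gene symbol begins with Uqcr, Cox4 to Cox8 or Atp5, or is Cyc1. The rule took 49 probes of 41 genes out of 17865 named genes, namely 9 genes of complex III, 15 of complex IV and 17 of ATP synthase. The set was selected on the log2 ratio of Lmx1a-transfected over control cells in these same arrays, so these ratios are given as a description, and counts past a test's threshold stand only beside the share over all probes. A further 5 probes carry an older symbol that fits the rule but a current one that does not. They name Dmac2l by 3 probes (log2 ratios -0.056 to 0.029), Emc8 (0.0094) and Dmac2 (0.0069), and they were left out. No named probe of Cox5b, Cox6b2 or Cox7a1, nor of a subunit encoded in mitochondrial DNA, was analysed here.

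Complex III passes electrons from ubiquinol to cytochrome c, complex IV passes them on to oxygen, and both move protons across the inner mitochondrial membrane. ATP synthase lets protons flow back through a ring in the membrane and uses that flow to make ATP in its F1 head. Subunits of these complexes are encoded mostly in the nucleus, some in isoforms that differ between tissues, and neurons rely heavily on the ATP they yield.

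The RNA came from MN9D, a mouse dopaminergic cell line, transfected transiently with the plasmid pcDNA3.1(-) carrying the Lmx1a coding sequence, or with that plasmid empty. Lmx1a encodes a homeodomain factor with LIM domains that takes part in making midbrain dopaminergic neurons. There were 3 RNA pools of Lmx1a-transfected cells, each from 3 dishes, and 1 control pool from 9 dishes, and both kinds of culture also received carrier DNA. Each Lmx1a pool was hybridised against the control pool on 2 dye-swapped arrays, once with its RNA in Cy5 and once in Cy3, which gave 6 arrays in all. The 2 arrays of a pool were averaged, so n = 3 pools. Over all probes, the Lmx1a ratios of the 2 arrays of a pool correlated at -0.095, 0.032 and -0.21 in pools 1 to 3. Arrays of the same dye orientation correlated at 0.32 to 0.50. The control pool is 1 sample, so no value holds the spread between control cultures, and separate transfections for the pools are not stated in the labels.

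The Lmx1a log2 ratio was 1.71, 2.78 and 2.97 in pools 1, 2 and 3 (mean 2.49 ± 0.68, SD, n = 3). In pool 1 the array with Lmx1a RNA in Cy5 gave 2.5 and that in Cy3 gave 0.93. The arrays of pools 2 and 3 gave 2.6 to 3.19. On the dimmest array, that of pool 1 with Lmx1a RNA in Cy3, 49.2% of probes were detected in the channel of the Lmx1a RNA. On the other arrays 60.1% to 67.7% were detected in that channel. A channel counts as detected where its spot mean exceeds the local background by 2 background standard deviations. In all other counts a spot is detected where at least 1 channel is. Of 12 dopaminergic markers 5 were detected on all 6 arrays (Th, Ddc, Slc18a2, Nr4a2 and Drd2), while Slc6a3, Pitx3, Foxa2 and Aldh1a1 were detected on none. All 6 measured noradrenergic or neuroblastoma markers were detected on all 6 arrays.

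The promoters shown here belong to the member with the lowest ratio in each complex, among those with an entry in RefSeq's promoter table, and to the member with the highest ratio, Atp5b. Each stretch runs from 100 bases before the annotated start to 20 bases from it, on the gene's strand, build GRCm38.p6. Capitals mark the letters CCGGAAG (bound by ETS factors such as GABPA), GCATGCGC (NRF1), AAGATGGC (YY1) or GGGCGG (SP1) on either strand.
Uqcr11, chr10:80406802-80406921, minus strand: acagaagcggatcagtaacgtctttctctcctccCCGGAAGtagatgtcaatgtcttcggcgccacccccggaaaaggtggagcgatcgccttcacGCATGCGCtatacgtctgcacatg
Cox7b, chrX:106015600-106015719, plus strand: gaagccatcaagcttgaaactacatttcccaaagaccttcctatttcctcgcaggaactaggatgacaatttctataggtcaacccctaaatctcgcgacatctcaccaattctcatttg
Atp5k, chr5:108434380-108434499, minus strand: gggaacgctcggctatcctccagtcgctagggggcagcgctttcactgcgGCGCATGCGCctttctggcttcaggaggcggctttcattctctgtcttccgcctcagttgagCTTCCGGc
Atp5b, chr10:128083207-128083326, plus strand: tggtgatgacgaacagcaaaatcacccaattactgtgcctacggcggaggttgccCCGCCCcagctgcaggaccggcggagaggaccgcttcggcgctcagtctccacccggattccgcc
Uqcr11 holds ETS and NRF1 letters, and Atp5k holds the NRF1 letters on both strands, overlapping, with the ETS letters on the opposite strand. Atp5b holds only SP1 letters, and none of the 4 sets of letters lies in the Cox7b stretch.

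The 41 genes stood slightly below 0, with a median log2 ratio of -0.071, and 34 of them (82.9%) were below 0. Over all 17865 named genes the median was 0.00093 and 48.5% were below 0. Among the 1981 named genes above the 90th percentile of brightness the median was 0.0087 and 43.5% were below 0. All members lay between -0.22 and 0.072, and 38 of the 41 genes were detected on all 6 arrays. In bulk RNA, fewer cells of a type and less RNA per cell cannot be told apart.

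No probe passed limma's test on the 3 pools at an adjusted p of 0.05, neither any of the 49 member probes nor any of all 31769 probes (0% called). The transfected gene Lmx1a was itself not called, with a limma adjusted p of 0.0779, so 0 calls do not mean that no ratio changed. At an unadjusted p under 0.05, 28 of the 49 member probes were called lower, where 5.56% of all probes were, and 2 were called higher, where 6.23% were. Fitting the 6 arrays with a replicate block in limma called 5 member probes lower (Uqcr10, Uqcrb, Cox7b, Atp5mpl and Atp5l) where 0.749% of all probes were called lower, and 0 higher where 0.299% were. Without the dimmest array, an alternative added after the data were seen, this fit called 0 member probes and 0.286% of all probes. The consensus correlation of the fit on 6 arrays was 0.0684, so arrays of a pool count as nearly independent in it. On all 6 arrays, 11 member probes were below 0, as were 2.61% of all probes, and 0 were above 0, as were 2.66%. Because these ratios chose the members, nothing is read from these counts.

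The 3 complexes did not separate. The median over genes was -0.055 in complex III, with 8 of 9 genes below 0, -0.10 in complex IV, with 13 of 15, and -0.071 in ATP synthase, with 13 of 17. By pool, the complex III median was -0.034, -0.073 and -0.027, that of complex IV -0.075, -0.062 and -0.054, and that of ATP synthase -0.036, -0.059 and -0.065. In complex IV the median of the gene means lies below all 3 pool medians, because different genes sit in the middle in each pool. Each difference between complexes changed sign between pools. Complex IV minus complex III was -0.041, 0.011 and -0.027, ATP synthase minus complex III was -0.0020, 0.014 and -0.038, and ATP synthase minus complex IV was 0.039, 0.0027 and -0.011.

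**Figure D1:**
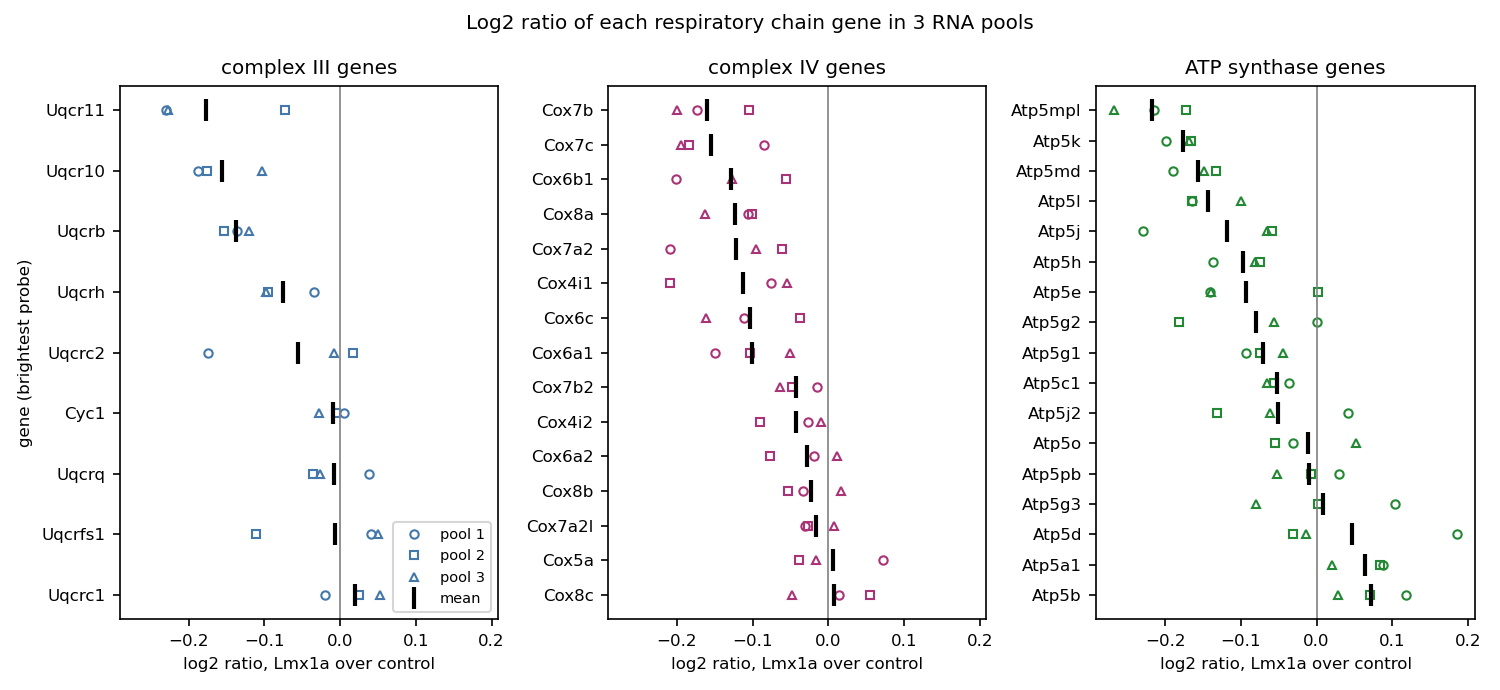
Log2 ratio of Lmx1a over control for each gene, by its brightest probe, in complex III (9 genes), complex IV (15) and ATP synthase (17). Open symbols are the 3 RNA pools and black bars their mean, and most genes of each complex lie left of 0, with Atp5mpl lowest at -0.22 and Atp5b highest at 0.072.

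In complex III, 4 of the 5 small subunits had the lowest mean ratios, and the other lay among the larger subunits. Uqcr11, a small subunit at the edge of the complex, gave -0.23, -0.073 and -0.23 in pools 1 to 3 (mean -0.18 ± 0.090). Uqcr10, another small membrane subunit, gave -0.19, -0.18 and -0.10 (mean -0.16 ± 0.046), and Uqcrb, which lies near the ubiquinone site, gave -0.14, -0.15 and -0.12 (mean -0.14 ± 0.016). All 3 genes were below 0 on all 6 arrays. Uqcrh, the hinge protein that holds cytochrome c1, gave -0.034, -0.095 and -0.098 (mean -0.076 ± 0.036), but all 3 arrays with Lmx1a RNA in Cy5 were above 0, at 0.038 to 0.050. Uqcrq, the other small subunit, was at -0.0086 and was detected on only 4 of 6 arrays.

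The subunits that carry the redox centres and the core proteins lay close to 0. Cyc1, cytochrome c1, was at -0.0096 ± 0.016. Uqcrfs1, the Rieske iron-sulphur protein, gave 0.040, -0.11 and 0.051 (mean -0.0068 ± 0.090), so its pools lie on both sides of 0. Uqcrc1, a core protein, gave -0.020, 0.025 and 0.053 (mean 0.020 ± 0.037), and Uqcrc2, the other, was at -0.055 ± 0.10, with pool 1 alone at -0.17. The median of the 5 small subunits minus that of the 4 core and catalytic subunits was -0.13, -0.10 and -0.12 in the 3 pools (mean -0.12 ± 0.015). With Lmx1a RNA in Cy5 alone these medians were -0.051 and -0.010, a difference of -0.041, and with it in Cy3 alone -0.20 and -0.00047.

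In complex IV, 8 subunits found in most tissues made up the low end. Cox7b gave -0.17, -0.10 and -0.20 (mean -0.16 ± 0.049) and was below 0 on all 6 arrays, between -0.27 and -0.098. Cox7c gave -0.084, -0.18 and -0.19 (mean -0.15 ± 0.061), with 1 array above 0 at 0.011. Cox6b1, which faces the intermembrane space, gave -0.20, -0.056 and -0.13 (mean -0.13 ± 0.072). Cox8a, in the membrane, gave -0.11, -0.10 and -0.16 (mean -0.12 ± 0.034). All of these pool values lie below 0. The others were Cox7a2 at -0.12 ± 0.077, Cox4i1 at -0.11 ± 0.084, Cox6c at -0.10 ± 0.063 and Cox6a1 at -0.10 ± 0.050. Cox5a, a subunit on the matrix side, gave 0.073, -0.039 and -0.016 (mean 0.0057 ± 0.059), on both sides of 0.

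Isoforms better known from other tissues are given beside their partners. Cox4i2, the isoform of lung and hypoxic cells, gave -0.027, -0.090 and -0.0099 (mean -0.042 ± 0.042), and Cox4i1 gave -0.075, -0.21 and -0.054. Cox6a2, of heart and muscle, gave -0.019, -0.077 and 0.012 (mean -0.028 ± 0.045), and Cox6a1 gave -0.15, -0.10 and -0.051. The pools of each of these pairs overlap, but within each pool Cox4i2 lay above Cox4i1 and Cox6a2 above Cox6a1. Cox8b, also of heart and muscle, gave -0.034, -0.053 and 0.017 (mean -0.023 ± 0.036), and Cox8c, of testis, gave 0.014, 0.055 and -0.048 (mean 0.0069 ± 0.052), all above the pools of Cox8a. Cox7b2, another testis form, gave -0.015, -0.048 and -0.064 (mean -0.042 ± 0.025), all above those of Cox7b. Cox7a2l, which joins complexes III and IV into supercomplexes, gave -0.031, -0.027 and 0.0078 (mean -0.017 ± 0.021), above Cox7a2 at -0.21, -0.062 and -0.096. The difference between partners was not tested.

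The values of these pairs, and in some the order, moved with the processing. With plain subtraction Cox6a2 was at -0.12 and Cox6a1 at -0.097. With Lmx1a RNA in Cy5 alone Cox4i2 was at 0.054, Cox8b at 0.14 and Cox7a2l at 0.019, all above 0. Their partners Cox4i1, Cox8a and Cox7a2 stayed lower there, at -0.019, -0.16 and -0.17. With Lmx1a RNA in Cy3 alone the order of Cox8b, at -0.19, and Cox8a, at -0.084, was reversed. The signal over background ran from 2.88 to 55.5 units for Cox6a2, from 13.6 to 94.3 for Cox8b and from 3.58 to 29.0 for Cox8c over both channels of the arrays, mostly under the offset of 50, which draws ratios of dim probes toward 0. For Cox7b2 the signal ran from 25.1 to 167 units, and with plain subtraction Cox7b2 was at -0.087 and Cox7b at -0.155. Cox6a2 was detected on 5 of 6 arrays and Cox8c on 4, while Cox4i2, Cox7b2 and Cox8b were detected on all 6. None of 6 muscle markers was detected on all 6 arrays, though Ckm, Myh7, Tnnt2 and Myog were on 5.

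ATP synthase held both the lowest and the highest member. The small subunits of its membrane part were lowest. Atp5mpl, a small proteolipid, gave -0.21, -0.17 and -0.27 (mean -0.22 ± 0.048), with all 6 arrays below 0, between -0.32 and -0.14. Atp5k, subunit e, gave -0.20, -0.17 and -0.17 (mean -0.18 ± 0.018). Its arrays ranged from -0.47 to 0.14, and the array of pool 3 with Lmx1a RNA in Cy3 alone was above 0. Atp5md, which helps hold the enzyme in pairs, gave -0.19, -0.13 and -0.15 (mean -0.16 ± 0.029), and Atp5l, subunit g, gave -0.16, -0.16 and -0.10 (mean -0.14 ± 0.038). With Lmx1a RNA in Cy5, Atp5md was above 0 on the arrays of pools 2 and 3, at 0.047 and 0.075. Atp5l was above 0 on that of pool 3, at 0.040. The fifth, Atp5j2 (subunit f), was at -0.051 ± 0.087, with pool 1 above 0.

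The F1 head, where ATP is made, held the highest values. Atp5b, the catalytic beta subunit, gave 0.12, 0.070 and 0.028 (mean 0.072 ± 0.045), with 5 of 6 arrays above 0. Atp5a1, the alpha subunit, gave 0.088, 0.083 and 0.020 (mean 0.064 ± 0.038). Its 3 arrays with Lmx1a RNA in Cy5 were all below 0, at -0.17 to -0.049, and the 3 in Cy3 all above, at 0.21 to 0.31. The delta subunit Atp5d was at 0.047 ± 0.12, the gamma subunit Atp5c1 at -0.053 ± 0.015 and the epsilon subunit Atp5e at -0.093 ± 0.082.

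The median of the 5 membrane subunits minus that of the 5 F1 subunits was -0.28, -0.17 and -0.14 in the 3 pools (mean -0.19 ± 0.074). This contrast rests on the arrays with Lmx1a RNA in Cy3, where the medians were -0.23 and 0.066. In Cy5 alone they were -0.048 and -0.046. The F1 median of 0.047 also turned to -0.045 with median centring and to -0.022 without replicate 1, while the membrane median stayed below 0 in each of these. The c ring genes encode the same mature protein. Atp5g1 gave -0.094, -0.075 and -0.045 (mean -0.071 ± 0.025), Atp5g2 gave 0.00044, -0.18 and -0.056 (mean -0.079 ± 0.094) and Atp5g3 gave 0.10, 0.0014 and -0.080 (mean 0.0084 ± 0.092). Atp5g2 and Atp5g3 overlap over the pools. The 4 stator genes ranged from -0.12 for Atp5j to -0.0099 for Atp5pb.

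**Figure D2:**
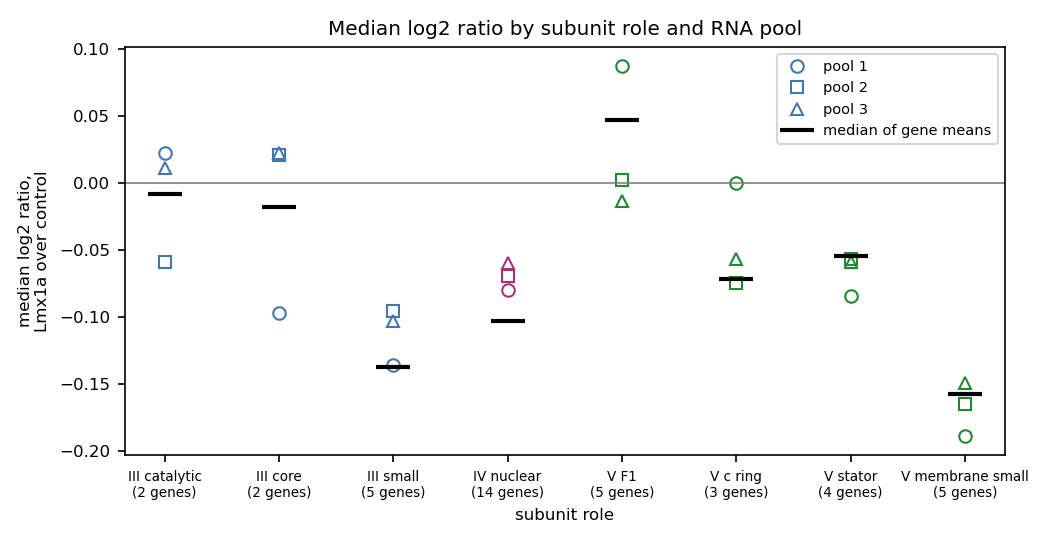
Median log2 ratio of Lmx1a over control for subunits grouped by role, with V standing for ATP synthase. Open symbols are the 3 RNA pools and black bars the median of the gene means, with the complex III small subunits (-0.14) and the ATP synthase membrane subunits (-0.16) lowest and the F1 subunits (0.047) highest.

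For 6 genes more than 1 probe was measured, and their probes agreed in sign. The 4 probes of Atp5g1 ranged from -0.090 to -0.068. The pairs gave -0.18 and -0.17 for Atp5k, -0.097 and -0.090 for Atp5h, -0.16 and -0.14 for Atp5l, -0.16 and -0.13 for Atp5md, and -0.15 and -0.12 for Cox7c. RefSeq's gene table names pseudogenes of 6 members (Atp5c1, Atp5k, Atp5l, Atp5pb, Cox7c and Uqcrh), and the arrays cannot separate a gene from near-identical copies, so values of these genes are uncertain in that respect.

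**Figure D3:**
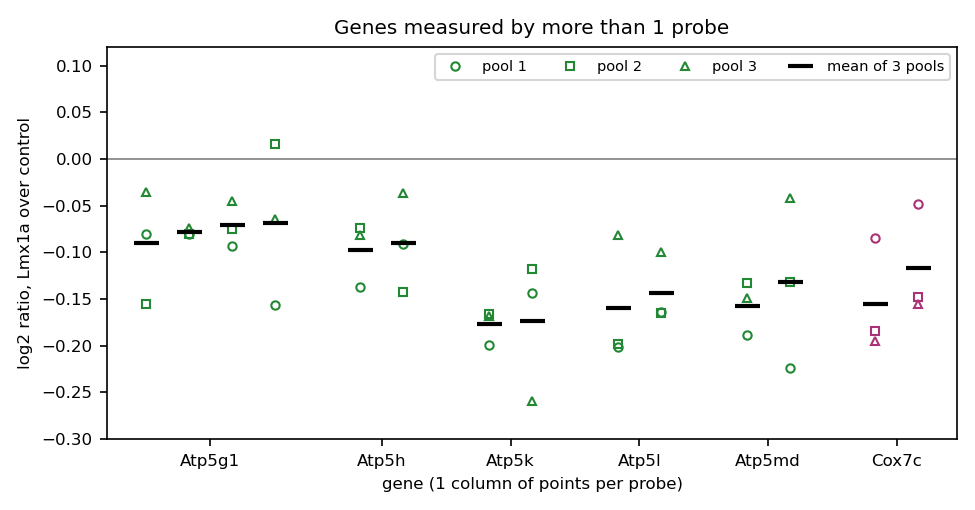
Log2 ratio of Lmx1a over control for the 6 genes with more than 1 probe, each column being 1 probe. Open symbols are the 3 RNA pools and black bars their mean, which lies below 0 for every probe shown, from -0.18 for Atp5k to -0.068 for Atp5g1.

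The dye effect, Cy5 over Cy3 whatever the RNA, was not used to choose the members and was tested with limma on the 3 pools. It was called at an adjusted p of 0.05 for 12 of 49 member probes (24.5%), where 6.8% of all probes were called. Among probes detected on all 6 arrays it was called for 12 of 45 members (26.7%) against 12.4%. Plain background subtraction called 1 of all probes and a variance trend with a robust prior called 0, and neither called a member probe. Of the 12, 6 were brighter in Cy3 and 6 in Cy5. The largest were Atp5h at -0.33 ± 0.068 (limma adjusted p 0.00247), 1 of the Atp5g1 probes at -0.32 ± 0.064 (0.00236) and Cox6c at -0.24 ± 0.042 (0.00276), all brighter in Cy3. On the other side stood Cox8b at 0.16 ± 0.043 (limma adjusted p 0.00956) and Uqcrh at 0.12 ± 0.032 (0.0187).

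For these 5 genes the Lmx1a ratio changed sign with the orientation. Cox6c was at -0.38 to -0.33 on the 3 arrays with Lmx1a RNA in Cy5 and at 0.052 to 0.26 on those in Cy3, with a mean of -0.10. Atp5h likewise ran from -0.47 to -0.40 and from 0.13 to 0.33. The other Atp5h probe, with a dye effect of 0.056 that was not called (limma adjusted p 0.198), gave a mean Lmx1a ratio of -0.090 beside -0.097. The same held for Atp5g1, whose 4 probes had dye effects from -0.32 to 0.074 and Lmx1a ratios within 0.022 of each other.

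**Figure D4:**
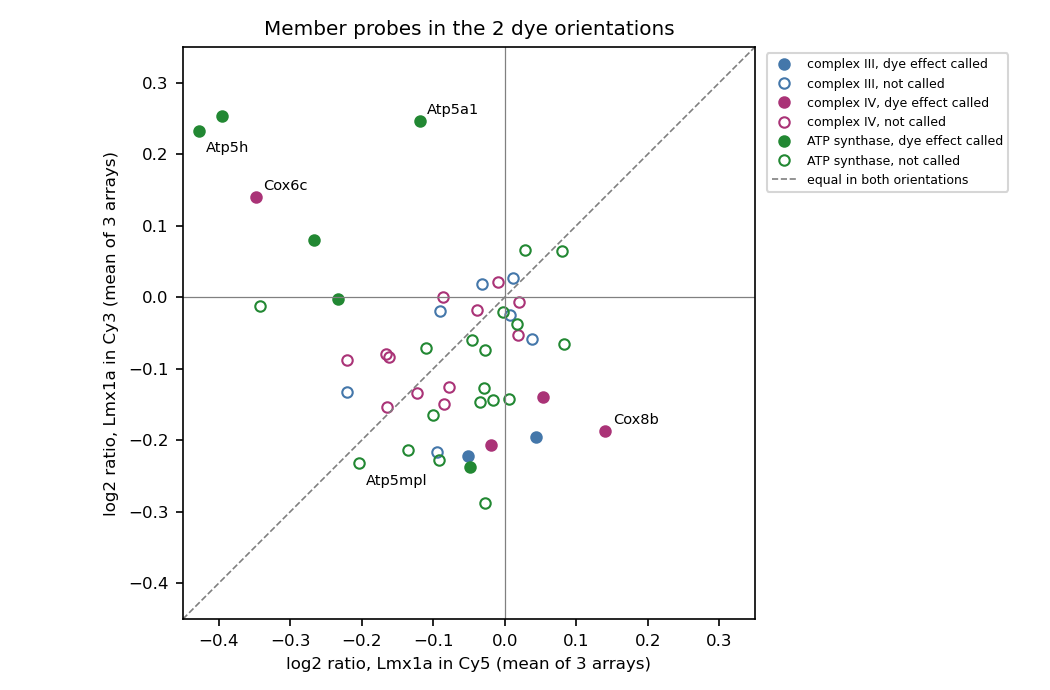
Log2 ratio of Lmx1a over control for the 49 member probes, with the mean of the 3 arrays with Lmx1a RNA in Cy5 on the x axis and that of the 3 arrays in Cy3 on the y axis. Filled points had a called dye effect (12 probes), and Atp5h and Cox6c lie far from the dashed line of equal values, while Atp5mpl lies near it at -0.20 and -0.23.

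Other genes of respiration did not all stand where these 41 stood. The 34 genes named Nduf with a subunit letter had a median of -0.090 with 29 below 0. The 32 of them that encode subunits of complex I, NADH dehydrogenase, leaving out the complex IV subunit gene Ndufa4 and its paralogue Ndufa4l2, had a median of -0.096 with 28 below 0, while the 4 genes of complex II, succinate dehydrogenase, had one of 0.014 with 1 below 0. The 14 matrix enzyme genes had a median of 0.036 with 3 below 0. The highest were malate dehydrogenase Mdh2 at 0.13 ± 0.027 and the isocitrate dehydrogenase subunit Idh3a at 0.077 ± 0.019. The subunits Idh3b and Idh3g of the same enzyme were at -0.059 and -0.011. The 20 genes of the vacuolar ATPase, the proton pump of acidic organelles, had a median of -0.0079 with 16 below 0. Limma's test on the 3 pools called 0 genes in these lists, and the replicate block called 10 of the 32 complex I genes lower, where 0.425% of all named genes were. At an unadjusted p under 0.05, 21 of these 32 genes were lower and 1 higher, and of the 14 matrix enzymes 1 was lower and 2 higher, where 4.93% of all named genes were lower and 6.92% higher.

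The 25 measured assembly factors had a median of -0.016, with 17 below 0. The lowest were Cox17, a copper chaperone of complex IV, at -0.18 ± 0.010, and Uqcc2, a complex III assembly factor, at -0.16 ± 0.030. The 11 regulators had a median of -0.0021, with 6 below 0. Gabpa, which encodes the ETS protein of GA-binding protein, gave 0.074, 0.26 and 0.12 (mean 0.15 ± 0.094), and its partner Gabpb1 was at 0.087 ± 0.036. Nrf1 was at -0.016 ± 0.038 and the coactivator gene Ppargc1a at 0.046 ± 0.046. Outside respiration, 67 genes listed by symbol as cytosolic ribosomal proteins had a median of -0.067, with 58 below 0 and 14 called lower by the replicate block. They include Rps19bp1 (0.014), caught by its symbol though not a ribosomal protein. The 77 mitochondrial ribosomal protein genes had a median of -0.028, with 55 below 0 and 3 called lower by that fit. Of all named genes it called 0.425% lower. At an unadjusted p under 0.05 in limma on the 3 pools, 37 of the 67 and 23 of the 77 were lower, and 0 and 1 higher. Of all named genes 4.93% were lower and 6.92% higher. Differences between these lists and the 41 genes were not tested.

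**Figure D5:**
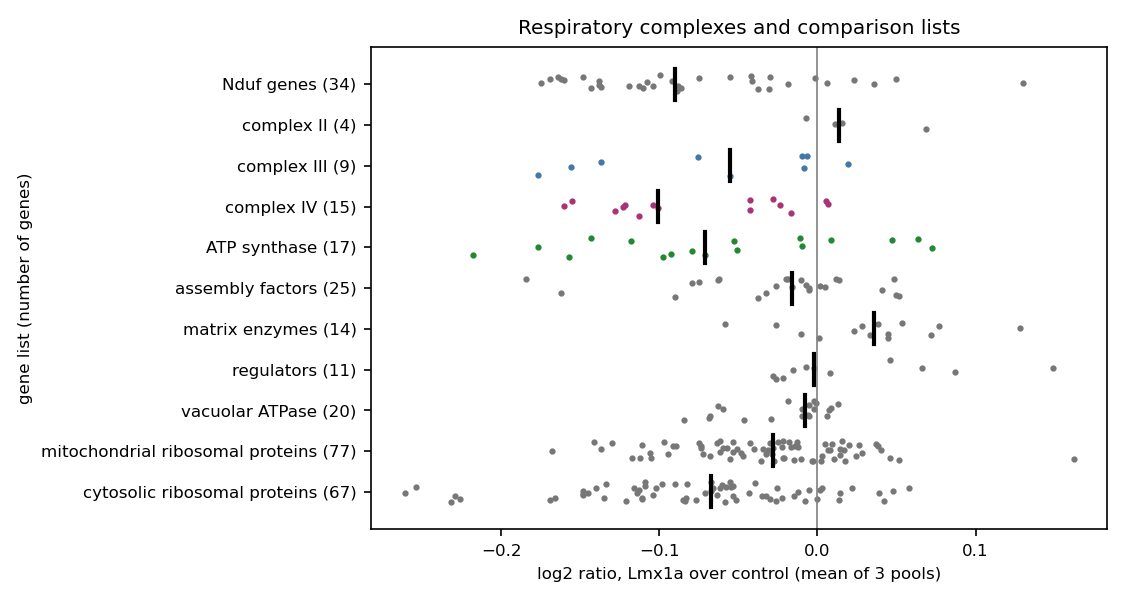
Mean log2 ratio of Lmx1a over control for the genes of the 3 complexes (coloured) and of 8 comparison lists (grey), with the number of genes in brackets. Each point is a gene, spread vertically at random, and black bars are medians, from -0.10 in complex IV to 0.036 in the matrix enzymes.

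RefSeq's promoter table, with windows from 250 bases before to 50 bases after the annotated start, matched 30 of the 41 genes. The ETS letters CCGGAAG were in 11 of 30 windows (36.7%) and in 9.93% of the windows of all 27025 genes in the table, counting both strands. The NRF1 letters GCATGCGC were in 6 (20.0%) against 3.05%, and the YY1 letters AAGATGGC in 3 (10.0%) against 3.19%. The SP1 letters GGGCGG were in 11 (36.7%) against 38.2%. The letters TAATTA, read by many homeodomain proteins, were in 0 of 30 windows against 6.12%. The 11 members with the ETS letters had a median log2 ratio of -0.12 (-0.18 to -0.076) and the 19 without one of -0.023 (-0.16 to 0.072). No test was made of these shares or medians, and a match of letters is not a binding site. The same split over all genes is not given here. Because these ratios chose the members, nothing is read from the medians.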

How the data were processed

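The authors' scanner tables give spot intensity on a linear scale, as spot means with background medians and standard deviations, per the file headers. The authors also deposited log2 ratios, already turned to Lmx1a over control on every array, with array medians from -0.0034 to 0.0042. Direction and scale were read from the values, since their correlation with Cy5 over Cy3 ratios from a loess within the 48 print grids was 0.996 to 0.998 where Lmx1a RNA was in Cy5 and -0.999 to -0.998 where it was in Cy3. This table served as an alternative. The scanner software is not given in the sources used here.

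Of 34992 spots, 3223 were controls, given weight 0 and dropped after normalization. GEO's platform annotation gave 1 gene name for 26000 of the other 31769 probes, several for 0 and none for 5769. Names were updated through RefSeq's table for GRCm38.p6 (2865 by synonym, 65 kept as given). Background was corrected by normexp with an offset of 50, ratios were normalized by loess (span 0.3) and the 2 arrays of a pool were averaged. The ratio and the dye effect were fitted across all probes in R 4.3.3 with limma 3.58.1, p-values being adjusted by Benjamini-Hochberg, and the procedure was tested on simulated data. Each gene is its brightest probe. In each complex, pool values are given for the 4 detected genes with the lowest and the 2 with the highest mean ratio, and isoform families are given whole. Other genes named with values were chosen after their values were seen. The members, lists and roles were chosen with earlier results of these data known, and the letters TAATTA were added later. The number of arrays limits the precision. Each p-value from the test on the 3 pools rests on the spread among them, which limma moderates toward a value shared by all probes. It holds no spread between control cultures. The p-values of the replicate block fit rest on the spread among single arrays, moderated likewise.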

Additional observations from a re-analysis of the deposited data

Results flagged for a closer look

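Among the 6 arrays, the value of Cox5a on the array of pool 1 with Lmx1a RNA in Cy3 stood apart from the others, at 0.176 against -0.073 to 0.0074. The same holds for the median over the ATP synthase genes on the array of pool 2 with Lmx1a RNA in Cy5, at -0.143 against -0.052 to -0.011 on the other 5. Both gaps exceeded Dixon's critical value for 6 values. Among genes, 29 named members were checked in this way, and chance alone sets apart about 1 in 20 such groups. The 6 arrays also mix both dye orientations.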

How the results depend on the processing

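The medians of the 3 complexes stayed below 0 under every alternative run. The complex III median of -0.055 was -0.082 with median centring and -0.066 to -0.032 when a replicate was left out. That of complex IV (-0.10) was -0.069 with loess within print grids, -0.12 with median centring, -0.079 in the authors' values, -0.078 and -0.084 with Lmx1a in Cy5 or Cy3 alone, -0.086 without the dimmest array, -0.072 with platform symbols and -0.077 to -0.065 without 1 replicate. That of ATP synthase (-0.071) was, in the same order, -0.051, -0.14, -0.039, -0.046 and -0.020, then -0.051 with platform symbols and -0.070 to -0.051 without 1 replicate. Limma called 0 of all probes, but 49 with median centring (0.154%), 993 and 215 in Cy5 or Cy3 alone (3.13% and 0.677%), 1 without the dimmest array and 0 to 1 without 1 replicate. The replicate block called 333, and 91 without the dimmest array, an alternative added after seeing the data. Its consensus correlation was 0.0684, so arrays of a pool count as nearly independent. Of member probes, 1 was called with median centring, 11 and 5 in Cy5 or Cy3 alone and 5 with the replicate block, but 0 with that block without the dimmest array. The dye effect was called for 12 member probes, but for 47 with median centring (78.0% of all probes), 0 with plain subtraction (1 of all probes), 0 with a variance trend and robust prior (0 of all) and 6 to 12 without 1 replicate (1.58% to 4.77% of all). With Lmx1a RNA in Cy5 or Cy3 alone, the Lmx1a ratio and the dye effect cannot be told apart. The causes of the other changes were not tested. Of 29 genes followed through 12 alternatives, 16 kept their sign, all below 0. Cox5a (7 alternatives) and Atp5g3 (5) changed sign most often. A slide or scan block and the description by protein length were not run, for want of labels and of a protein table.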
